A study of Mus musculus with 12 samples.

Results

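The 10 genes described here encode germ cell RNA-binding proteins and proteins of the piRNA pathway: Ddx4, Dazl, Nanos3, Dnd1, Piwil2, Mov10l1, Tdrd1, Tdrd9, Mael and Tex15. They were taken by Ensembl gene identifier and chromosome and by no threshold on their values, but the list was chosen with earlier results of these data known. All 10 were found among the 55416 genes of the input count files. In the table of RNA immunoprecipitation (RIP) ratios, 2 of the 10, Tex15 and Mael, had rows, 7 of its 14447 in all. The study measured RNA of whole mouse ovaries at embryonic day E16.5 in 4 groups of 3 libraries each: Fmr1 knockout (KO) input, wild-type (WT) input, KO RIP and WT RIP. Fmr1 encodes FMRP, which binds mRNAs and controls their translation, and the RIP used the antibody FMRP ab17722. The KO RIP libraries stand for the background of the antibody only if FMRP is absent there, which these data do not measure. All 4 groups, WT included, carry the strain label B6.129P2-Fmr1tm1Cgr/J, and the series text calls the WT input ovaries littermates. Each sample pooled 5 pairs of ovaries, and the labels do not state whether KO ovaries were homozygous. The allele is constitutive, so germ cells and somatic cells of the KO ovary both carry it.

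Germ cells assemble RNA and protein into cytoplasmic granules (nuage) in which mRNAs are stored and small RNAs are made. PIWI proteins bind piRNAs and silence transposons, with RNA helicases that process the precursors and Tudor proteins that bind methylated arginines of PIWI proteins as scaffolds. In the mouse this pathway is best known from the fetal testis; at E16.5 the germ cells of the ovary are oocytes in meiotic prophase, lying among somatic cells.

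The promoters of the members were examined for sequence features that the choice of members did not use. RefSeq windows from 250 bases before to 50 bases after a transcript start (build GRCm38.p6) existed for 7 members: Ddx4, Dazl, Mael, Tdrd1, Tdrd9, Nanos3 and Mov10l1. Both strands were searched for CACGTG, the E-box to which basic helix-loop-helix factors such as MAX and MGA bind, which reads the same on both strands, and for TCCCGC, the core of E2F sites; the letters of these motifs can share at most 1 base. CACGTG occurred in 5 of the 7 members (Ddx4, Mael, Tdrd1, Tdrd9 and Mov10l1), against 8.09% of all 27025 genes with a window. Among all 32851 windows 7.15% held it, and among windows with 10 or more CpG dinucleotides 10.9% did. TCCCGC or its reverse complement occurred in 2 of the 7 (Ddx4 and Mael), against 22.0% of all genes. Of the 9 windows of these members (Tdrd1 has 3), 7 held 10 or more CpG, against 43.5% of all windows. Among the Tdrd1 windows, 2 share most of their bases, and Tdrd9 lay at the limit with 10. By gene, 6 of the 7 members had a window with 10 or more CpG, and this share was not taken over all genes. These matches describe letters in a window and show no binding. The windows shown are those of Mael, which has a RIP row, of Tdrd9, whose input estimate lay furthest from 0, and of Ddx4, which has the most CpG; capitals mark CACGTG.
Mael promoter: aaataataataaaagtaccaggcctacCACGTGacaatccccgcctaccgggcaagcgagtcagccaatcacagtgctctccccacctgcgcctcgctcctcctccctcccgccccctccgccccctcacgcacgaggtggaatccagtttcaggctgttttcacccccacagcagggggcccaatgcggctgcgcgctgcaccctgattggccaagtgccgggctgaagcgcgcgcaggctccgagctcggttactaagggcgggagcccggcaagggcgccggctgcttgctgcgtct
Tdrd9 promoter: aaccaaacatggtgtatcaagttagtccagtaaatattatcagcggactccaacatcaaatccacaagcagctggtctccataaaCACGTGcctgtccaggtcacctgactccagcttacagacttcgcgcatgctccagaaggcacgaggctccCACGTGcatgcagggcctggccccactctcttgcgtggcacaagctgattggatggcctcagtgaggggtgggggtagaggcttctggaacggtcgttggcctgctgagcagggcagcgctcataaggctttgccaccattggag
Ddx4 promoter: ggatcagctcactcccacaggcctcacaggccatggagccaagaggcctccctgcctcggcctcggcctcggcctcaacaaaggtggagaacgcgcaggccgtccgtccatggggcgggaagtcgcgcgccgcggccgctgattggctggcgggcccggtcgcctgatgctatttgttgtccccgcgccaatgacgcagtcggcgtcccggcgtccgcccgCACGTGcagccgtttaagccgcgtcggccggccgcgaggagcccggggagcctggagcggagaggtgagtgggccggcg
The Mael window is chr1:166238695-166238994 on the minus strand and holds 24 CpG, with the E-box starting 223 bases upstream of the start. The Tdrd9 window is chr12:111971309-111971608 on the plus strand and holds 10 CpG and a pair of E-boxes, 165 and 95 bases upstream. The Ddx4 window is chr13:112652261-112652560 on the minus strand and holds 38 CpG, with the E-box 29 bases upstream. Dazl, with 28 CpG in its window, had neither motif.

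Input libraries held 18880238 to 25707718 counted reads, and the targeted gene Fmr1 stood at 85.6, 123 and 93.4 CPM (counts scaled to library size) in KO input, against 204, 213 and 221 CPM in WT input. It fell in KO by the quasi-likelihood test of edgeR (log2 change -1.08, SE 0.11, Benjamini-Hochberg adjusted p = 0.00775). The RIP columns had medians of 1.72 to 1.78, but their 99th percentiles ran from 17.1 to 25.1 in KO replicates 2 and 3 and WT replicate 1, against at most 11.6 in the other 3 libraries.

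Compared per length of transcript, as TPM (counts per exonic length, scaled to library size), the members split into abundant and scarce genes. Mael averaged 46.3 TPM over the 6 libraries, followed by Dazl at 34.6, Tex15 at 29.2, Ddx4 at 27.0 and Mov10l1 last of these, and the libraries of each overlapped those of its neighbour in this order. A gap that no library crossed separated Mov10l1 from Piwil2 at 5.08 TPM, and a further one separated Dnd1, at 0.866 TPM, from all others. Between these gaps lay Piwil2, Tdrd9 (3.33 TPM), Tdrd1 (2.27 TPM) and Nanos3 (2.19 TPM), in which each of the first 3 overlapped with the next. By mean TPM, Mael ranked 1616 and Dnd1 20951 among the 55416 genes. The germ cell markers Ddx4, Dazl and Mael were present in every library of both genotypes. In bulk RNA, fewer germ cells and less RNA per germ cell cannot be told apart.

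**Figure D1:**
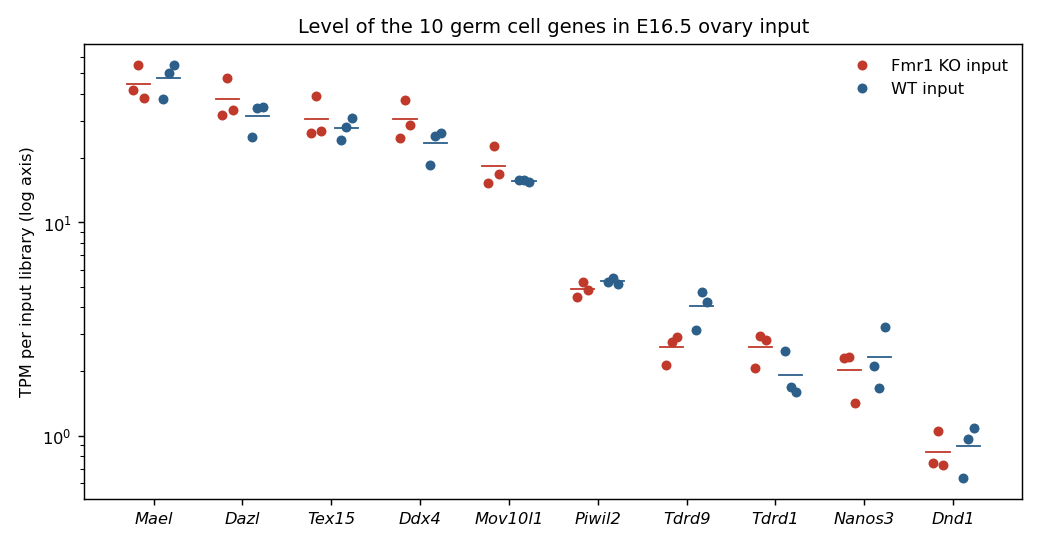
TPM of each member (horizontal, ordered by mean level) on a log axis, with 3 KO input libraries (red, left) and 3 WT input libraries (blue, right) as points and each group's mean as a line. Mael to Mov10l1 lie above the other 5 members in every library, and Dnd1 lies lowest.

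Ddx4 (ENSMUSG00000021758, chromosome 13, 112734867 to 112789009) encodes the DEAD-box RNA helicase VASA, a core protein of germ granules. Coordinates here and below are those of the count files' Ensembl annotation, which are not on the build of the promoter windows. Its level was 47.9, 65.1 and 52.3 CPM in KO input, against 34.9, 47.9 and 48.9 CPM in WT input. KO replicate 2 was highest and WT replicate 1 lowest, and the groups overlapped by the narrow margin between KO replicate 1 and WT replicate 3. KO differed from WT by 0.33 on the log2 scale (SE 0.14; edgeR adjusted p = 0.810), from 0.19 to 0.42 over the alternatives, with 0.19 both without KO replicate 2 and without WT replicate 1.

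Dazl (ENSMUSG00000010592, chromosome 17, 50586423 to 50600664) encodes an RNA-binding protein with an RNA recognition motif that promotes translation of germ cell mRNAs and is needed for entry into meiosis. Its level was 77.9, 103.99 and 78.2 CPM in KO input, against 59.9, 81.7 and 82.3 CPM in WT input. As for Ddx4, KO replicate 2 was highest and WT replicate 1 lowest, and the groups overlapped. KO differed from WT by 0.22 on the log2 scale (SE 0.16; edgeR adjusted p = 0.961), or by 0.066 without KO replicate 2 and 0.082 without WT replicate 1.

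Nanos3 (ENSMUSG00000056155, chromosome 8, 84900360 to 84911846) and Dnd1 (ENSMUSG00000044595, chromosome 18, 36896724 to 36899267) encode RNA-binding proteins that primordial germ cells need for survival. They were the members closest to the limit of the data. Nanos3 had 26, 30 and 15 reads in KO input, against 31, 22 and 39 in WT input. Dnd1 had 22, 35 and 20 reads in KO input, against 24, 33 and 34 in WT input. The groups overlapped for both, and the log2 changes of -0.24 (SE 0.36) for Nanos3 and -0.11 (SE 0.35) for Dnd1 had the widest errors of the list. Without WT replicate 3 both estimates lay above 0. Exonic sequence of 1 other annotated gene covers 5.80% of the exonic bases of Dnd1, and the share of Dnd1 reads that this affects is not known.

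Piwil2 (ENSMUSG00000033644, chromosome 14, 70609926 to 70666832) encodes MILI, the PIWI protein that cleaves transposon RNA in mouse germ cells. Its level was 15.1, 15.9 and 15.5 CPM in KO input, against 17.3, 18.1 and 16.9 CPM in WT input. All KO libraries lay below all WT libraries, by little, and the replicates of each group lay close together. KO differed from WT by -0.17 on the log2 scale (SE 0.12; edgeR adjusted p = 0.957), so it did not pass.

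Mov10l1 (ENSMUSG00000015365, chromosome 15, 88867112 to 88939355) encodes the RNA helicase that feeds piRNA precursors into processing. Its level was 40.8, 55.1 and 42.5 CPM in KO input, against 41.3, 41.0 and 39.8 CPM in WT input. The WT libraries lay close together, and KO replicate 2 stood above the rest. KO differed from WT by 0.18 on the log2 scale (SE 0.10; edgeR adjusted p = 0.893), and without KO replicate 2 it lay at 0.033.

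Tdrd1 (ENSMUSG00000025081, chromosome 19, 56814641 to 56858444) encodes a Tudor protein that binds PIWI proteins in nuage. Its level was 7.19, 9.17 and 9.27 CPM in KO input, against 8.40, 5.72 and 5.41 CPM in WT input. WT replicate 1 lay within the KO range, so the groups overlapped. The log2 change was 0.39 (SE 0.19; edgeR adjusted p = 0.856), with 0.62 without WT replicate 1 and 0.27 without WT replicate 3 as the ends of its range when 1 library was left out.

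Tdrd9 (ENSMUSG00000054003, chromosome 12, 111937993 to 112035288) encodes a Tudor protein with an RNA helicase domain that acts in transposon silencing in mouse male germ cells. Its level was 7.40, 8.59 and 9.54 CPM in KO input, against 10.6, 16.0 and 14.2 CPM in WT input. Every KO library lay below every WT library, and the KO mean was 0.626 of the WT mean. The log2 change of -0.67 (SE 0.17) had the smallest p of the members, 0.000651 unadjusted, but did not pass after adjustment over all genes (adjusted p = 0.309, edgeR). With no low-count filter it passed (adjusted p = 0.0130, edgeR), and with DESeq2 it did not (adjusted p = 0.0897). The fit with no filter gave Fmr1 an adjusted p of 1.7e-44 (edgeR), against 0.00775 with the filter. The log2 change of Fmr1 was -1.08 in both, so adjusted p-values of these 2 fits are not on a like scale. Over all 10 alternatives the log2 change of Tdrd9 ran from -0.83 to -0.54 and its adjusted p from 0.0130 to 0.707.

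Mael (ENSMUSG00000040629, chromosome 1, 166028770 to 166066316) encodes Maelstrom, a nuage protein required for transposon silencing in mouse germ cells. Its level was 45.9, 54.3 and 40.1 CPM in KO input, against 40.9, 54.2 and 58.9 CPM in WT input, and the groups overlapped. KO differed from WT by -0.13 on the log2 scale (SE 0.14; edgeR adjusted p = 0.976). Leaving out 1 library moved this to between -0.27, without WT replicate 1, and -0.021, without WT replicate 3; it was -0.25 without KO replicate 2, -0.086 without WT replicate 2 and -0.026 without KO replicate 3.

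Tex15 (ENSMUSG00000009628, chromosome 8, 34006766 to 34075610) encodes a large protein that mouse male germ cells need for meiotic recombination and for silencing of transposons with MILI. Its level was 160, 216 and 156 CPM in KO input, against 145, 168 and 183 CPM in WT input, the highest read count of the list. KO replicate 2 was highest and WT replicate 1 lowest, as for Ddx4 and Dazl. KO differed from WT by 0.10 on the log2 scale (SE 0.14; edgeR adjusted p = 0.979) and lay at -0.067 without KO replicate 2.

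Read together, the input estimates of the members had no common direction. Of the 10, 5 had a positive and 5 a negative estimate, where 49.5% of all 23698 tested genes had a positive one. None of the 10 passed in the edgeR fit with the low-count filter, which called 0.0422% of the genes it tested. None passed with DESeq2, which called 0.171%. With no filter Tdrd9 passed, as given above, in a fit that called 113 of the 49570 genes with at least 1 read. In the filtered edgeR fit, 2 (Tdrd9 and Ddx4) had an unadjusted p under 0.05, against 5.9% of all. In 2 members, Piwil2 and Tdrd9, all KO libraries lay below all WT libraries, an arrangement found in 5.69% of tested genes, and in 0 members all KO libraries lay above, against 5.22%. The median log2 change was -0.0060 over the members and -0.0020 over all tested genes. The standard errors ran from 0.10 to 0.36, and a difference well above its standard error could still miss the threshold. Tdrd9, at -0.67 with an SE of 0.17, did so in the filtered edgeR fit. A member that did not pass is therefore not shown to be unchanged.

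**Figure D2:**
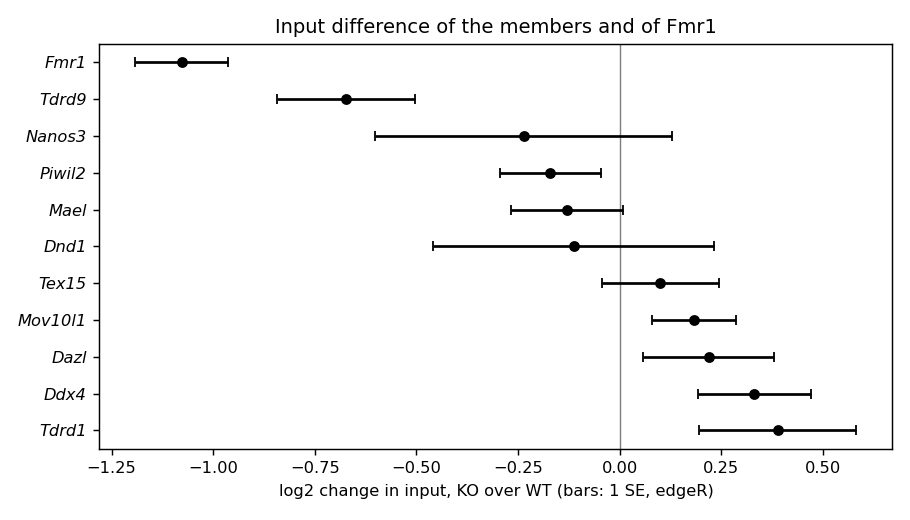
Log2 change in input, KO over WT (horizontal), for Fmr1 at the top and the 10 members ordered by estimate. Bars are 1 SE, derived from the F statistic of edgeR. Only Fmr1 passed; the members lie between -0.67 (Tdrd9) and 0.39 (Tdrd1).

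The members' summed level was 405, 531 and 405 CPM in KO input, against 361, 435 and 453 CPM in WT input, that is 447 ± 72.8 CPM over the KO libraries and 416 ± 49.0 CPM over the WT libraries (SD, n = 3). The groups overlapped, and the KO mean was 1.07 of the WT mean, or 0.972 without KO replicate 2. Of the 10 members, 4 (Ddx4, Dazl, Tex15 and Mov10l1) were highest in KO replicate 2, and 4 (Ddx4, Dazl, Tex15 and Dnd1) were lowest in WT replicate 1. Tex15, Dazl, Mael and Ddx4 made up 81.2% of the sum over all libraries.

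Expressed as a share of this sum, which removes a difference common to all members, 3 of the 10 had groups that did not overlap, Ddx4 and Dazl with KO above WT and Tdrd9 with KO below WT. When every tested gene was divided by the same sum, KO lay above WT in 1.38% of genes and below it in 4.87%. The members are parts of this sum and the other tested genes are not, so these percentages are not a like background for the members. Piwil2, whose groups were apart in CPM, overlapped on this measure. Ddx4 made up 12.3% ± 0.54 of the KO sum and 10.5% ± 0.71 of the WT sum (SD, n = 3). Dazl made up 19.4% ± 0.18 in KO and 17.9% ± 1.13 in WT. Tdrd9 made up 1.93% ± 0.38 in KO and 3.25% ± 0.38 in WT. Tex15 took almost the same share in both, 39.6% ± 1.11 in KO and 39.8% ± 1.00 in WT. The shares add up to a whole, so they are not independent of each other.

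**Figure D3:**
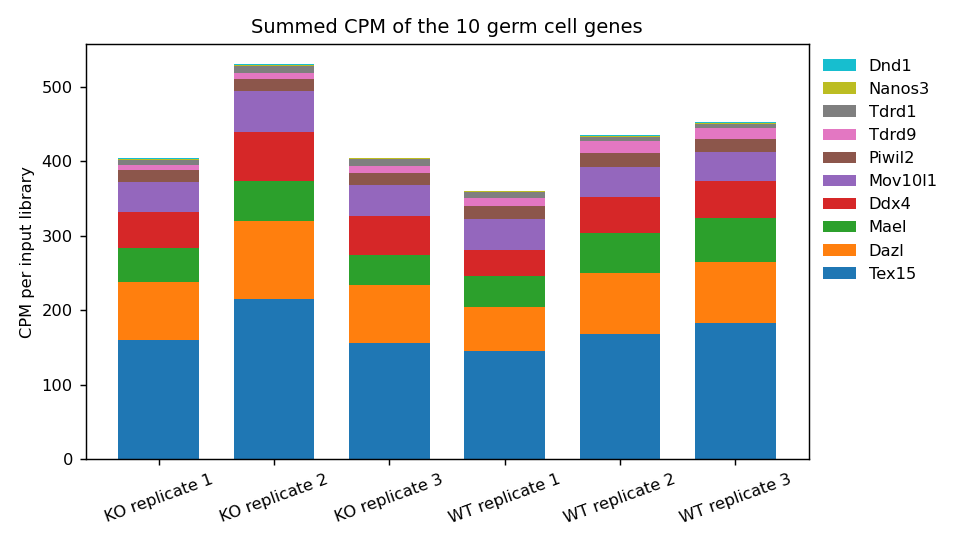
CPM of the 10 members stacked for each input library, KO on the left and WT on the right. KO replicate 2 has the highest sum, 531 CPM, and WT replicate 1 the lowest, 361 CPM; Tex15 and Dazl are the largest parts of each bar.

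The RIP table gives the authors' fold enrichments, a ratio per library whose denominator is not given in the sources used here. Tex15 had 6 rows and Mael 1, and in all 7 the KO mean lay below the WT mean, against 49.1% of all 14447 rows. In 6 of the 7 every KO library lay below every WT library, an arrangement found in 8.4% of all rows; the opposite arrangement, found in 6.75%, occurred in 0. The test covered the 14365 rows with a mean ratio of at least 1, and 2 of the 7 (Mael and Tex15 row 3) reached that mean only through their WT libraries. None of the 7 passed (limma on log2(ratio + 1), Benjamini-Hochberg adjusted p of 0.377 to 0.727), as none of all tested rows did (0%). Of the 5 other rows, all of Tex15, 4 had an unadjusted p under 0.05, a level that 5.97% of tested rows reached with WT higher. Of the 7 rows, 6 belong to 1 gene and share its transcript, so they are not separate observations.

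The Tex15 rows are numbered in the order of the table, which does not give their place on the transcript. Row 1 had ratios of 1.10, 1.21 and 1.17 in KO, against 1.77, 1.73 and 1.68 in WT. Row 2 had 1.09, 1.09 and 0.975 in KO, against 1.58, 1.65 and 1.80 in WT. In both, the gap between the groups was wider than the range within either. Row 3 had 1.07, 0.936 and 0.894 in KO, against 1.30, 1.62 and 1.38 in WT. Row 4 had 0.948, 1.24 and 1.29 in KO, against 1.601, 1.75 and 1.40 in WT. In these and in row 5, with 0.914, 1.27 and 1.36 in KO, against 1.70, 1.57 and 1.54 in WT, the gap was narrower than the range within at least one group. Row 6 overlapped, with 1.12, 1.25 and 0.857 in KO, against 1.56, 1.14 and 1.17 in WT.

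Per row, the KO mean of Tex15 was 0.627 to 0.830 of the WT mean. The log2 differences, KO minus WT, were -0.34 (SE 0.066) for row 1 and -0.38 (SE 0.073) for row 2, both with an adjusted p of 0.377 (limma), which was also the smallest of all tested rows. All 18 WT values of Tex15 exceeded 1, and 6 of its 18 KO values lay below 1. The WT means lay at percentiles 10.7 to 46.6 of all rows and the KO means at percentiles 1.27 to 7.51, so the WT ratios were not high within the table, and the KO ratios were among its lowest. Averaged over its 6 rows, Tex15 stood at 1.04, 1.16 and 1.09 in KO RIP, against 1.59, 1.58 and 1.49 in WT RIP. These means were 1.10 ± 0.063 in KO RIP and 1.55 ± 0.051 in WT RIP (SD, n = 3 libraries each), a KO mean of 0.707 of the WT mean (two-sided exact permutation test, p = 0.1, which is the lowest p that 3 against 3 libraries can give). Of the 292 genes with 6 or more rows, 7.53% had the KO mean below the WT mean in every row, as Tex15 did.

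The single Mael row had ratios of 0.613, 0.904 and 0.762 in KO, against 2.19, 1.23 and 1.33 in WT. Every KO value lay under 1 and every WT value over 1, and WT replicate 1 stood well above the other WT libraries. The KO mean, 0.760 ± 0.15, was 0.480 of the WT mean, 1.58 ± 0.53 (SD, n = 3 each). The row reached the filter, a mean ratio of 1, only through its WT libraries, so its place among the tested rows already depends on the difference. In the fit with no filter, the log2 difference, KO minus WT, was -0.54 and did not pass (limma adjusted p = 0.427). Without WT replicate 1 the KO mean was 0.594 of the WT mean, and the row's overall mean then lay under the filter. The Fmr1 row, whose gene the knockout alters, had 0.388, 0.439 and 0.439 in KO, against 1.34, 1.43 and 1.40 in WT.

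**Figure D4:**
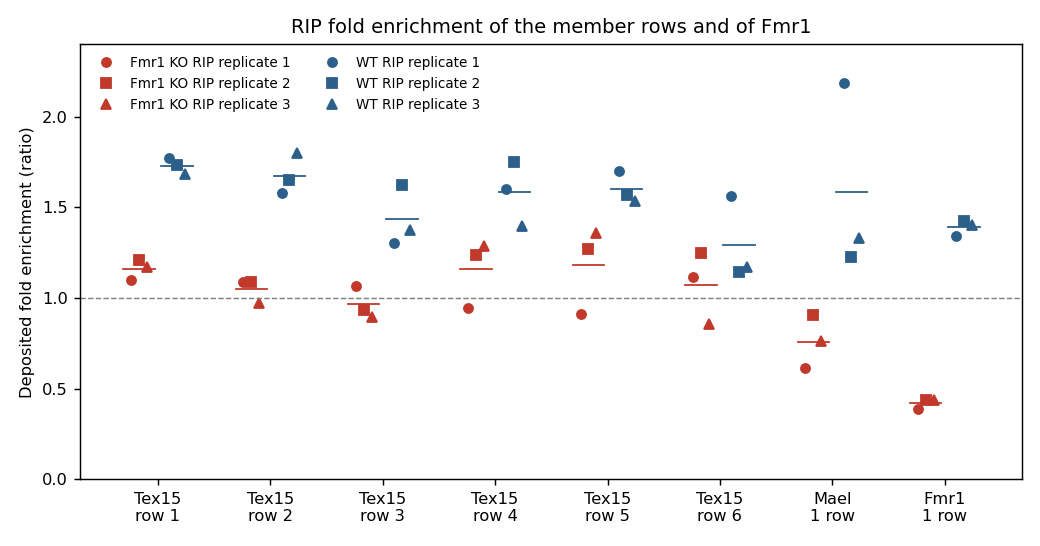
Deposited fold enrichment (vertical, linear from 0) of the 6 Tex15 rows, the Mael row and the Fmr1 row, with KO RIP libraries in red on the left and WT RIP libraries in blue on the right of each; symbols mark replicate numbers, lines the group means and the dashed line a ratio of 1. KO lies below WT without overlap in every row shown except Tex15 row 6.

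Because no KO value of the Tex15 mean or of Mael reached a WT value, any subset of the libraries has the same direction, so only sizes are given for the sets that the 99th percentiles separate. In each set, 1 genotype has a single library. Among the 3 libraries with the lower 99th percentiles (KO replicate 1, WT replicates 2 and 3) the KO mean was 0.677 of the WT mean for Tex15 and 0.479 for Mael. Among the other 3 (KO replicates 2 and 3, WT replicate 1) it was 0.711 for Tex15 and 0.381 for Mael. In the input, where the KO mean of Tex15 was 1.07 and that of Mael 0.911 of the WT mean, neither gene passed. Whether the denominators of the ratios move with these input levels was not tested.

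The other 8 members had no row in the RIP table. Of the 8034 genes with a mean of at least 10 TPM, 64.3% had a row, and among the 5 members at that level 2 did. For each member, the share with a row was taken over the genes whose mean CPM lay within 1.25-fold of its own. This share was broadly larger for members with higher read counts. That share was 83.3% for Tex15 and 62.5% for Mael, the members with rows. It was 72.3% for Dazl, 62.9% for Ddx4 and 58.7% for Mov10l1, which had none although most genes of their read level did. It was 35.0% for Piwil2, 24.1% for Tdrd9 and 16.3% for Tdrd1, and 3.84% for Nanos3 and 3.79% for Dnd1. How rows were chosen for the table is not given, so the absence of a row is no measure of binding.

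The exon structure of the members was set beside the presence of a row. Tex15 has the longest exonic sequence of the list, 9622 bp, of which 1 exon of 7035 bp makes up 73.1%. Mael has the second shortest, 1733 bp, with no exon over 535 bp. Mov10l1, at 4183 bp, has no exon over 337 bp, while Dazl and Piwil2 hold exons of 1917 and 1960 bp. The members with rows were thus the longest and one of the shortest of the list.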

How the data were processed

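RNA of whole E16.5 ovaries was sequenced in 3 KO and 3 WT input libraries and 3 KO and 3 WT RIP libraries. Input values are raw read counts per gene, deposited without normalization, which the authors made, per the file headers, with featureCounts 1.6.3 over the exons of Ensembl release 104, with no option for strand, so reads of antisense genes are not separated. The submitters' processing notes list BWA 0.7.12, MACS2 2.1.0, DESeq2 1.26.0 and GRCm38 with no role. The GRCm38.p6 promoter windows of Ddx4, Dazl, Mael, Nanos3 and Mov10l1 lie wholly outside these genes as placed in the count files. The 2 sets of coordinates were therefore taken as not of 1 build, and neither was changed into the other. RIP values are a fold enrichment, a ratio on a linear scale that the authors deposited with no denominator or depth stated.

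All genes' counts were tested with edgeR 4.0.16 (TMM, filterByExpr, robust quasi-likelihood), KO over WT, and adjusted by Benjamini-Hochberg at 0.05. For RIP, log2(ratio + 1), centred on each column's median, was fitted with limma 3.58.1 (trended eBayes) in the rows whose mean ratio reached 1; this scale understates changes of low ratios. CPM uses TMM factors; TPM uses exonic lengths. Both steps were tested on simulated data. In simulated input, 27 of 50 genes changed 1.5-fold and 50 of 50 changed 4-fold were called, with 12 false calls. In simulated RIP, 16 of 50 rows whose ratio + 1 changed 1.5-fold were called and 46 of 50 changed 4-fold, with 4 false calls. The simulated data held 50 changed genes or rows at each fold, while the real fits called 10 input genes and 0 RIP rows. More changed genes or rows make the adjusted p threshold easier to pass, so these recoveries can overstate what the real fits detect. In the real input Tdrd9, at a log2 change of -0.67, did not pass (edgeR adjusted p = 0.309).

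Symbols follow the list of members; RefSeq (GRCm38.p6) places all 10 symbols on the chromosomes that the count files give for the identifiers. The tables used pair no identifier with a symbol, so further piRNA genes and markers of somatic cells were not analysed here; the part of cell composition in any difference was not tested. The genes named are all 10 members and Fmr1, taken as ENSMUSG00000000838. The members and lists were chosen with earlier results of these data known. Input libraries of a group differed by more than counting noise (a chi-square of 7.03 to 12.1 for each degree of freedom), so none was taken as a second copy of another; RIP libraries were not compared in this way; p-values measure the spread between pools of ovaries. Alternatives were DESeq2 1.42.0, other filters, normalizations and pseudocounts, each library left out and a replicate block. No per-sample column was left unused.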

Additional observations from a re-analysis of the deposited data

How the results depend on the processing

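Of 100 input values of single members under 10 alternatives, 96 kept their direction and side of the threshold. The exceptions were Tdrd9, which passed with no low-count filter (log2 change -0.68), Tex15, at -0.067 without KO replicate 2, and Nanos3 and Dnd1, at 0.053 and 0.043 without WT replicate 3. With 1 library left out, the log2 change ran from -0.067 to 0.19 for Tex15, from -0.43 to 0.053 for Nanos3 and from -0.31 to 0.043 for Dnd1. The count of called members, 0, was 1 with no low-count filter (Tdrd9, lower in KO) and 0 otherwise. The count of all called genes, 10 with 0 higher in KO, was 37 with DESeq2 (17 higher in KO), 113 with no filter (48 higher in KO), 20 with the replicate block (4 higher in KO) and 5 to 37 with 1 library left out, 37 without KO replicate 1, 28 without WT replicate 2 and 5 without KO replicate 2; the cause was not tested. The log2 change of Fmr1 ran from -1.25 to -0.97 and passed throughout. The members' median input change lay between -0.13 and 0.11.

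No member row of the RIP table was called under any of 13 alternatives, and none of the 83 values of single member rows passed. The count of all called RIP rows, 0, was 1 with no filter on low values (Fmr1). The median log2 difference of the member rows was -0.31, against 0.0027 over all tested rows. The member median was -0.52 with a pseudocount of 0.1 and -0.060 with one of 10, which rescale the ratio. It was -0.28 with quantile normalization, -0.41 with a gene's rows averaged, and -0.33 to -0.27 with 1 library left out. Of the 7 member rows, 6 belong to Tex15 and share its transcript, so the median describes mainly 1 gene. In 2 of the 7, including the Tex15 row that gives the main median, the KO mean lay under the filter of 1. These 2 were tested only through their WT libraries. With no filter on low values the median was also -0.31. The split of RIP libraries by their 99th percentile was chosen after seeing the data.

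Same-numbered KO and WT libraries did not deviate together (correlations of -0.11, -0.051 and -0.071 in input and -0.60, -0.34 and -0.22 in RIP). In either assay, 0 of 6 libraries correlated best with their own number. These values gave no sign of pairing by number, but with 3 libraries per group they cannot exclude it. The block changed the call of no member, and the count of all called input genes from 10 to 20. Depth limits Nanos3 and Dnd1, with 15 to 39 reads per library.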
